A study of Drosophila melanogaster with 12 samples.

Results

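The sugar transporters described here are 7 Drosophila melanogaster genes, chosen by their FlyBase symbols (Tret1-1, Tret1-2, Glut1, sut1, sut2, sut3 and sut4) from the 17707 genes of the deposited count table, and all 7 were found and tested. RNA was measured in whole flies of 4 groups, each with 3 libraries: flies fed erythritol for 72 h (T72h), flies fed the same medium without it for 72 h (CK72h), flies fed erythritol for 96 h (T96h) and their controls at 96 h (CK96h). Erythritol, a small sugar alcohol used as a sweetener, had been added at 1 mol/L to a sucrose, corn and yeast medium, and the flies entered the flasks newly emerged, so those of the 96 h groups were also older. Each library came from a pool of 100 flies, and the sources used here name no strain, genotype or transgene. Neither the labels nor the study's methods give the sex of the flies, and the proportion of the sexes is not known. Testis and sperm genes had counts in every group. So did the ovary follicle genes as a set, but Yp1, Yp2 and Yp3 gave nearly all of their counts in T96h.

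Sugars cross cell membranes through facilitative carriers, proteins of the SLC2 (GLUT) family that let a sugar run down its gradient without spending energy. In insects the main blood sugar is trehalose, a disaccharide of glucose that the fat body makes and releases and that the enzyme trehalase splits again inside the tissues that use it. Tret1-1 is the facilitative trehalose carrier of Drosophila and is known for moving blood trehalose into the glia that wrap the nervous system, Tret1-2 is its paralog, Glut1 is the fly counterpart of the mammalian glucose carrier GLUT1, and sut1 to sut4 were named sugar transporters from their similarity to other sugar carriers.

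On the dm6 assembly, 6 of the 7 genes lie on chromosome arm 2R. sut1 (FBgn0028563, 8082976 to 8087151), sut2 (FBgn0028562, 8087396 to 8089297) and sut3 (FBgn0028561, 8089482 to 8091297) follow each other on the plus strand, with gaps of 244 and 184 bp and no other gene between them. Tret1-1 (FBgn0050035, 11665768 to 11674782) and Tret1-2 (FBgn0033644, 11675935 to 11678014) are also neighbours on the plus strand, 1152 bp apart. sut4 (FBgn0028560) lies alone on the minus strand from 10085442 to 10087127, inside the span of CG2269, with which it shares no exon base. Glut1 (FBgn0264574) is on the plus strand of 3L from 914074 to 993788 and has 20 annotated transcripts. sut1 shares 183 exonic bases with slv, a gene of the SWEET sugar transporter family on the opposite strand. How reads were assigned to genes is not stated in the sources used here, and reads of sut1 and slv, and of the paralogs Tret1-1 and Tret1-2, may have been split in a way that cannot be seen from the counts.

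Library totals ran from 19855575 to 23327826 counts, and the 7 genes together took 0.0342% to 0.0641% of a library. Levels are given as CPM, the usual counts-per-million unit, after scaling of the libraries with TMM factors. One library stood apart in the share of counts on mitochondrial genes, T72h replicate 3 with 16.5%, against 7.29% to 11.9% in the other libraries, and values without it are given below where they change a call. Genes were tested with edgeR's quasi-likelihood test over 13179 genes. In what follows a gene rose or fell where its adjusted p was under 0.05, and it was called where its log2 fold change was also at least 1.5 in size, the thresholds of the study.

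Tret1-1 was by far the most abundant of the 7 transcripts and was higher in erythritol-fed flies at both times. It measured 531, 528 and 511 CPM in T72h, against 283, 278 and 275 CPM in CK72h. At 96 h it measured 365, 370 and 358 CPM in T96h, against 191.3, 191.0 and 182 CPM in CK96h. All T libraries lay above all CK libraries of the same time, with no overlap. The log2 fold change was 0.91 (SE 0.0357, adjusted p = 1.3e-17) at 72 h and 0.95 (SE 0.0365, adjusted p = 6.91e-18) at 96 h, about 1.88 and 1.94 times the control level. In whole flies, more cells that express a gene and more RNA per cell cannot be told apart, and this holds for every value below.

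The effect on Tret1-1 was nearly equal at the 2 times. The difference between the 96 h and the 72 h effect was 0.04 (95% interval -0.06 to 0.15, adjusted p = 0.448), so that a difference above about 0.15 lay outside the interval. That small value depended on scaling. It was 0.24 (adjusted p = 1.26e-04) with upper-quartile factors and 0.36 (adjusted p = 2.17e-05) with library totals alone, settings that moved the median of all genes in this contrast by 0.20 and 0.31.

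Tret1-2 behaved unlike its neighbour. It measured 4.76, 4.18 and 4.77 CPM in T72h, against 5.98, 6.73 and 6.22 CPM in CK72h. At 96 h the order was the opposite, with 6.14, 5.90 and 6.02 CPM in T96h, against 2.59, 2.38 and 2.42 CPM in CK96h. The groups did not overlap at either time, although these levels rest on only 47 to 155 counts per library. Tret1-2 fell by 0.47 on the log2 scale at 72 h (SE 0.120, adjusted p = 0.00112) and rose by 1.29 at 96 h (SE 0.137, adjusted p = 4.47e-09). Tret1-1 gave 115 ± 10.1 times the CPM of Tret1-2 in T72h and 44.2 ± 2.96 times in CK72h, against 60.5 ± 1.87 times in T96h and 76.5 ± 3.31 times in CK96h (SD, n = 3 each).

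Glut1 fell on erythritol at both times, by a small amount. It measured 30.6, 31.4 and 29.6 CPM in T72h, against 47.6, 47.0 and 42.8 CPM in CK72h. In the older flies it measured 41.1, 36.8 and 40.3 CPM in T96h, against 48.0, 48.9 and 47.1 CPM in CK96h. Every T library was below every CK library of its time. The log2 fold change was -0.58 (SE 0.0537, adjusted p = 3.59e-10) at 72 h and -0.28 (SE 0.0521, adjusted p = 2.38e-05) at 96 h, and the effect was smaller at 96 h by 0.30 (SE 0.0750, adjusted p = 8.44e-04).

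The 3 adjacent genes sut1, sut2 and sut3 each took a different course. sut1, the most abundant of them, measured 52.8, 58.4 and 49.5 CPM in T72h, against 70.1, 64.6 and 69.2 CPM in CK72h. At 96 h it measured 46.9, 47.5 and 45.2 CPM in T96h, against 86.8, 86.7 and 87.6 CPM in CK96h. Thus sut1 was lower on erythritol in all libraries at both times, and the gap was wider at 96 h. The log2 fold change was -0.34 (SE 0.0501, adjusted p = 1.03e-06) at 72 h and -0.90 (SE 0.0502, adjusted p = 1.56e-14) at 96 h, and the difference of -0.56 passed the test (SE 0.0710, adjusted p = 1.22e-07).

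sut2 went the other way and was the only 1 of the 7 genes called for diet. It measured 11.4, 11.3 and 10.9 CPM in T72h, against 3.30, 2.87 and 3.38 CPM in CK72h, which is 215 to 235 counts against 66 to 79. At 96 h it measured 7.68, 6.91 and 7.61 CPM in T96h, against 4.43, 4.71 and 4.63 CPM in CK96h. The T libraries stood clear of the CK libraries at both times, and more so at 72 h. The log2 fold change was 1.81 at 72 h (SE 0.112, adjusted p = 1.45e-13), a level 3.52 times that of the controls, and 0.69 at 96 h (SE 0.113, adjusted p = 5.39e-06), with a difference of -1.12 between the times (SE 0.162, adjusted p = 9.56e-07). The ratio of sut1 to sut2 showed the shift within 1 stretch of the genome: sut1 had 4.78 ± 0.343 times the CPM of sut2 in T72h and 21.4 ± 1.05 times in CK72h, against 6.31 ± 0.503 times in T96h and 19.0 ± 0.606 times in CK96h (SD, n = 3 each).

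sut3 turned round between the times. It measured 7.06, 7.40 and 7.36 CPM in T72h, against 13.2, 14.3 and 13.4 CPM in CK72h. A day later it measured 14.8, 14.3 and 13.8 CPM in T96h, against 6.46, 5.37 and 5.58 CPM in CK96h. The groups did not overlap at either time, but T was the lower at 72 h and the higher at 96 h. sut3 fell by 0.90 on the log2 scale (SE 0.0895, adjusted p = 1.46e-09) and rose by 1.30 (SE 0.0932, adjusted p = 2.52e-12), a difference of 2.21 (SE 0.129, adjusted p = 8.28e-14).

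sut4, which lies elsewhere on the arm, had the same course at a higher level. It measured 32.3, 30.8 and 34.0 CPM in T72h, against 69.2, 71.9 and 73.0 CPM in CK72h. In the 96 h groups it measured 62.8, 62.0 and 63.0 CPM in T96h, against 25.5, 22.0 and 23.04 CPM in CK96h. Here too T lay wholly below CK at 72 h and wholly above it at 96 h. The log2 fold change was -1.14 at 72 h (SE 0.0503, adjusted p = 1.41e-16) and 1.41 at 96 h (SE 0.0533, adjusted p = 5.15e-18), and the difference of 2.55 was the largest among the 7 genes (SE 0.0733, adjusted p = 5.07e-20). The 96 h value lay near the threshold of 1.5, and without T72h replicate 3 it was 1.52 (adjusted p = 7.39e-23), which would be called. That library is not part of the 96 h contrast, and leaving it out moved the median of all genes there by 0.11. The CPM of sut4 was 4.45 ± 0.252 times that of sut3 in T72h and 5.25 ± 0.211 times in CK72h, against 4.38 ± 0.159 times in T96h and 4.06 ± 0.0982 times in CK96h (SD, n = 3 each), so the ratio of these transcripts moved much less than their levels.

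**Figure D1:**
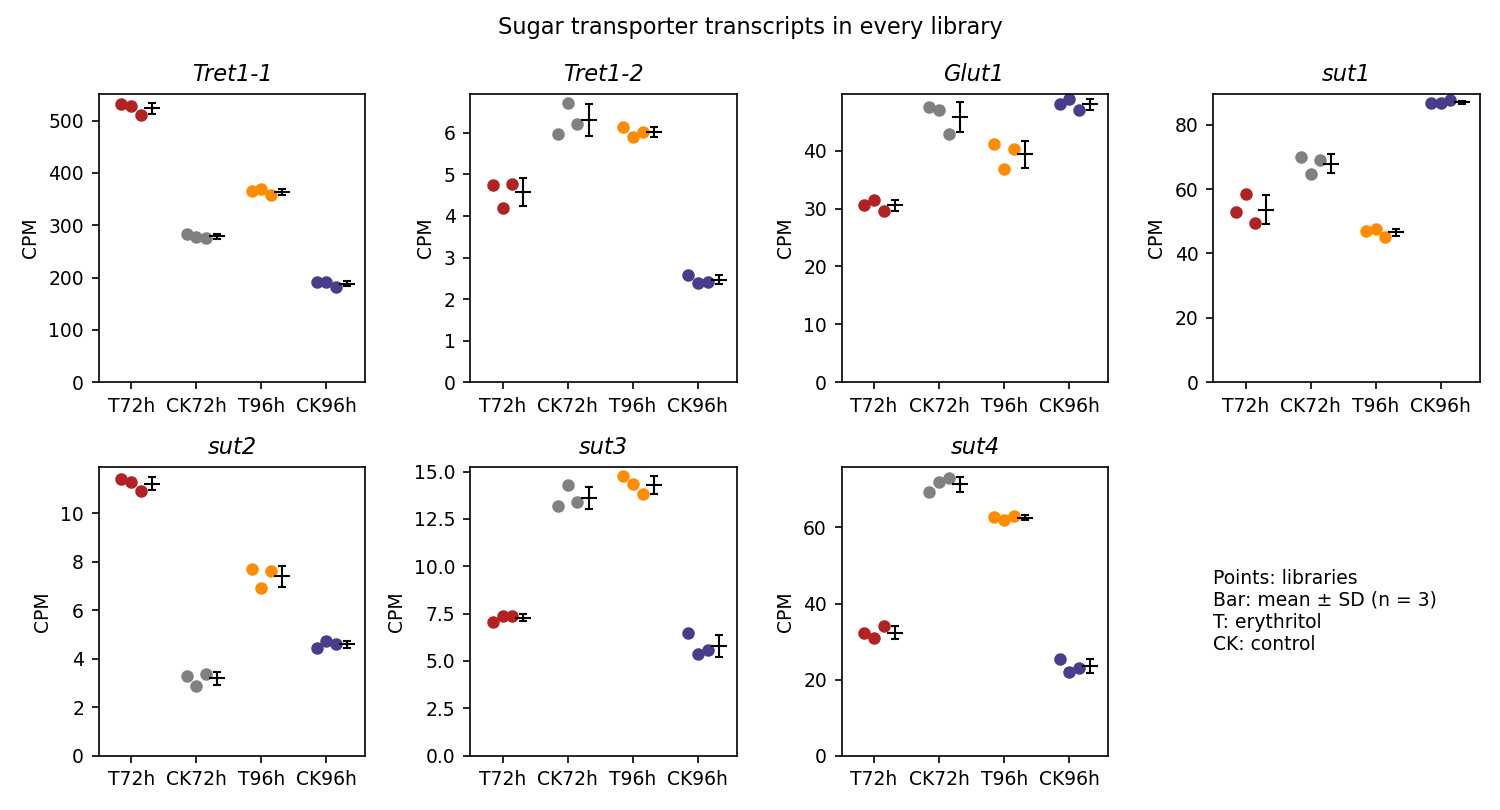
CPM of each of the 7 genes (vertical axes, each from 0) in the 12 libraries, by group, with points for libraries and a bar for the mean ± SD of 3. Tret1-1 was near 523 and 278 CPM in T72h and CK72h, while sut3, sut4 and Tret1-2 were lower in T72h than in CK72h and higher in T96h than in CK96h.

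As a group, the 7 genes moved in both directions. At 72 h 2 of them rose and 5 fell, and 1 was called. The background was high: among all genes tested, 37.3% rose and 42.1% fell in T72h against CK72h, 79.3% in all, and 3.98% were called higher and 8.92% lower, 12.9% in all, so 7 of 7 passing and 1 of 7 called are near what the whole table gave. Their median log2 fold change was -0.47, beside -0.05 over all genes.

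At 96 h 5 of the 7 rose and 2 fell, all 7 passing the adjusted p, and so the unadjusted p under 0.05, beside 79.5% of all genes (38.3% higher and 41.2% lower). None was called with edgeR or with DESeq2, beside 11.1% of all genes (3.97% called higher and 7.15% lower), and the nearest to the fold threshold were sut4, sut3 and Tret1-2. The median log2 fold change was 0.95, beside -0.02 over all genes. The library values of all 7 genes did not overlap between T and CK at either time, which was also true of 79.7% of all genes tested at 72 h and 80.8% at 96 h.

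Of the 7 genes, 3 (sut3, sut4 and Tret1-2) fell at 72 h and rose at 96 h. Over the whole table, 2312 of 13179 genes did so, 17.5%. The test of the difference between the effects passed for 6 of the 7 genes, beside 78.9% of all genes (31.1% with a positive and 47.8% with a negative difference). This balance of all genes turned with the scaling. It was 4101 positive to 6303 negative with TMM, 4777 to 4868 under upper-quartile scaling, and 5207 to 3635 where library totals alone were used, whereas the signs of these 6 genes did not change under either. The difference was positive for sut3, sut4, Tret1-2 (1.75, SE 0.182, adjusted p = 4.31e-09) and Glut1 and negative for sut1 and sut2.

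**Figure D2:**
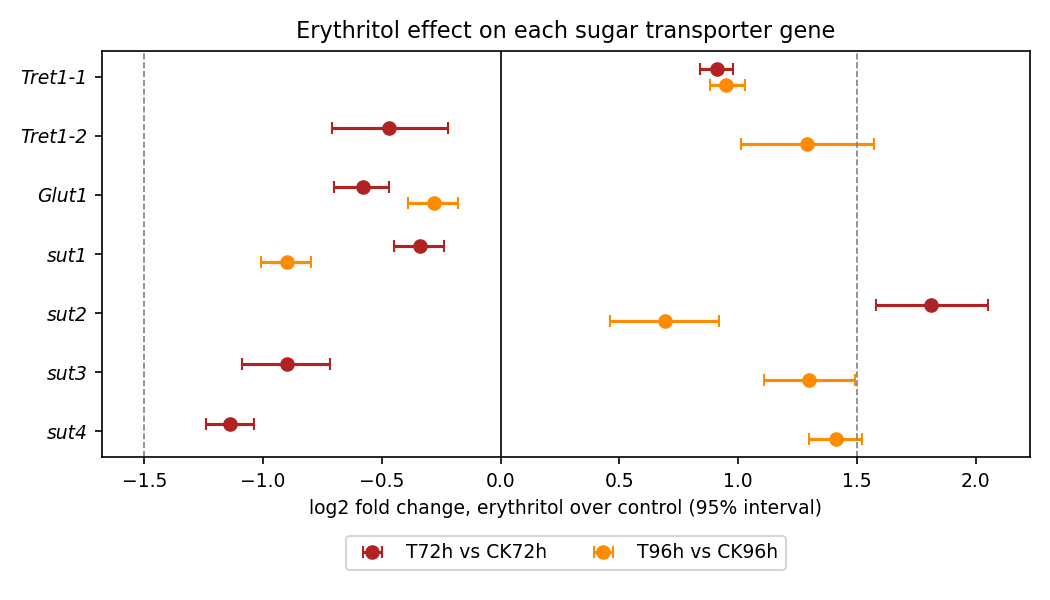
Log2 fold change of erythritol-fed over control flies (horizontal axis) with its 95% interval for each gene, at 72 h and at 96 h, with dashed lines at the fold threshold of 1.5 in either direction. The 2 points of Tret1-1 lie together at 0.91 and 0.95, and those of sut4 lie on opposite sides of 0 at -1.14 and 1.41.

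The control flies themselves differed between the times, which enters each of these contrasts. Between CK96h and CK72h, 2 of the 7 genes rose and 4 fell, beside 82.3% of all genes passing the adjusted p (47.2% higher and 35.1% lower). Among the 7, 1 was called, beside 5.62% of all genes (1.56% higher and 4.07% lower). sut4 was that gene: its log2 fold change was -1.60 (SE 0.0523, adjusted p = 9.32e-19), with 22.0 to 25.5 CPM in CK96h and 69.2 to 73.0 CPM in CK72h. Tret1-2 fell by 1.36 (adjusted p = 1.41e-09), sut3 by 1.23 (adjusted p = 9.56e-12) and Tret1-1 by 0.57 (adjusted p = 4.91e-13), whereas sut2 rose by 0.53 (adjusted p = 6.27e-04) and sut1 by 0.36 (adjusted p = 2.52e-07). Tret1-2 would also have been called with upper-quartile factors (-1.52) or library totals (-1.55), which moved the median of all genes by -0.17 and -0.19. Glut1 gave 0.07 (95% interval -0.04 to 0.17, adjusted p = 0.223), its values overlapped between CK96h and CK72h, and its sign changed with the scaling.

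Between T96h and T72h the same genes moved in another pattern. Here 4 of the 7 rose and 3 fell, beside 53.0% of all genes passing the adjusted p (26.3% higher and 26.8% lower), and none was called with edgeR or DESeq2, beside 1.40% of all genes (0.653% higher and 0.744% lower). sut3 rose by 0.97 (adjusted p = 1.2e-09), sut4 by 0.95 (adjusted p = 4.07e-14), Tret1-2 by 0.40 (adjusted p = 0.00833) and Glut1 by 0.37 (adjusted p = 3.76e-06). sut2 fell by 0.60 (adjusted p = 1.47e-05), Tret1-1 by 0.52 (adjusted p = 3.51e-12) and sut1 by 0.20 (adjusted p = 0.00203). DESeq2 gave Tret1-2 0.32 with an adjusted p of 0.0718, so its change in this contrast passed with edgeR alone. These contrasts share libraries with those for diet, and Tret1-1 fell with time by about as much in T (0.52) as in CK (0.57).

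Levels were compared between genes as CPM per kilobase of exon, since longer transcripts give more reads. On this scale Tret1-1 stood first in every group, at 155 in T72h and 82.5 in CK72h, and at 108 in T96h and 55.7 in CK96h. sut1 and sut4 came next and changed places: sut1 was above sut4 in T72h (22.2 and 19.2) and in CK96h (36.1 and 13.9), and below it in T96h (19.3 and 37.1) and in CK72h (28.2 and 42.3), with no overlap of library ranges. sut3, sut2, Glut1 and Tret1-2 were all between 1.45 and 8.98 in the group means. Glut1 and Tret1-2 overlapped in T72h, CK72h and T96h, and all other neighbours in the order were apart. Glut1 depends most on the length used, since its 20 transcripts cover 10933 bp of exon in all. Its mean over the groups was 3.74 with that length, 5.35 with the longest transcript and 7.23 with the coding length, so its place relative to sut2 and sut3 depends on that choice.

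Summed over the 7 genes, the level was 213 ± 3.92 CPM per kilobase in T72h and 171 ± 0.590 in CK72h, and 185 ± 1.97 in T96h and 118 ± 2.25 in CK96h (SD, n = 3 each). Tret1-1 alone made up 72.6% ± 0.322 of that sum in T72h and 48.1% ± 0.599 in CK72h, and 58.3% ± 0.483 in T96h and 47.2% ± 0.794 in CK96h. The share of sut1 was 10.4% in T72h and 16.4% in CK72h, and 10.4% in T96h and 30.6% in CK96h. The higher sum on erythritol was thus carried by Tret1-1 at 72 h, and by Tret1-1 and sut4 at 96 h.

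**Figure D3:**
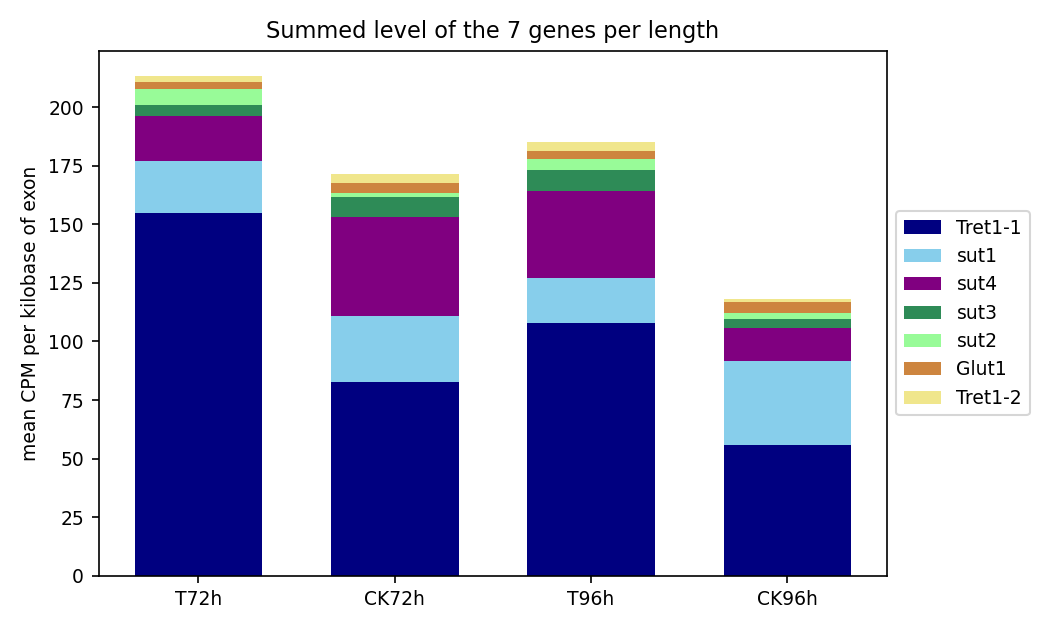
Mean CPM per kilobase of exon (vertical axis) stacked over the 7 genes for each group. The bar of T72h reaches 213 and that of CK72h 171, and the Tret1-1 segment at the base takes 155 and 82.5 of them.

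Several tissues contribute to a whole-fly library, and the summed CPM of marker genes differed between the groups. For 24 testis and sperm genes it was 2363 to 2441 in T72h and 4769 to 4798 in CK72h, and 4931 to 4948 in T96h and 1903 to 1940 in CK96h. Of the 23 of them tested, all fell at 72 h, while 21 rose and 1 fell at 96 h. loopin-1, the most abundant, had log2 fold changes of -1.03 and 1.48, and S-Lap7, a leucyl aminopeptidase of sperm, -0.95 and 1.45. Mst84Da, the gene not tested, was at 0 in CK96h but had only 5 counts over all 12 libraries. The sum had the same direction at both times as sut3, sut4 and Tret1-2, and so had the sum of neuronal genes given below. The testis sum was higher in T96h than in CK72h. sut4 was lower in T96h (62.0 to 63.0 CPM) than in CK72h (69.2 to 73.0 CPM), with no overlap. The values of sut3 and of Tret1-2 overlapped between these groups, so their order there cannot be compared.

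Set against 1000 CPM of these testis genes, sut3 and sut4 varied less between the groups than their levels did. The part of the testis in their values was not tested. sut3 gave 3.04 ± 0.0852 CPM in T72h and 2.85 ± 0.115 in CK72h, and 2.90 ± 0.0941 in T96h and 3.02 ± 0.314 in CK96h (SD, n = 3 each). sut4 gave 13.5 ± 0.449 in T72h and 14.9 ± 0.383 in CK72h, and 12.7 ± 0.138 in T96h and 12.2 ± 0.999 in CK96h. Its ratios still differed without overlap between CK72h (14.5 to 15.3) and T96h (12.5 to 12.8). Tret1-2 gave 1.91 ± 0.122 in T72h and 1.32 ± 0.0757 in CK72h, and 1.22 ± 0.0259 in T96h and 1.28 ± 0.0620 in CK96h, so that it stood apart in T72h. sut1, by contrast, gave 22.4 ± 2.22 in T72h and 14.2 ± 0.656 in CK72h, and 9.43 ± 0.229 in T96h and 45.3 ± 0.677 in CK96h.

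**Figure D4:**
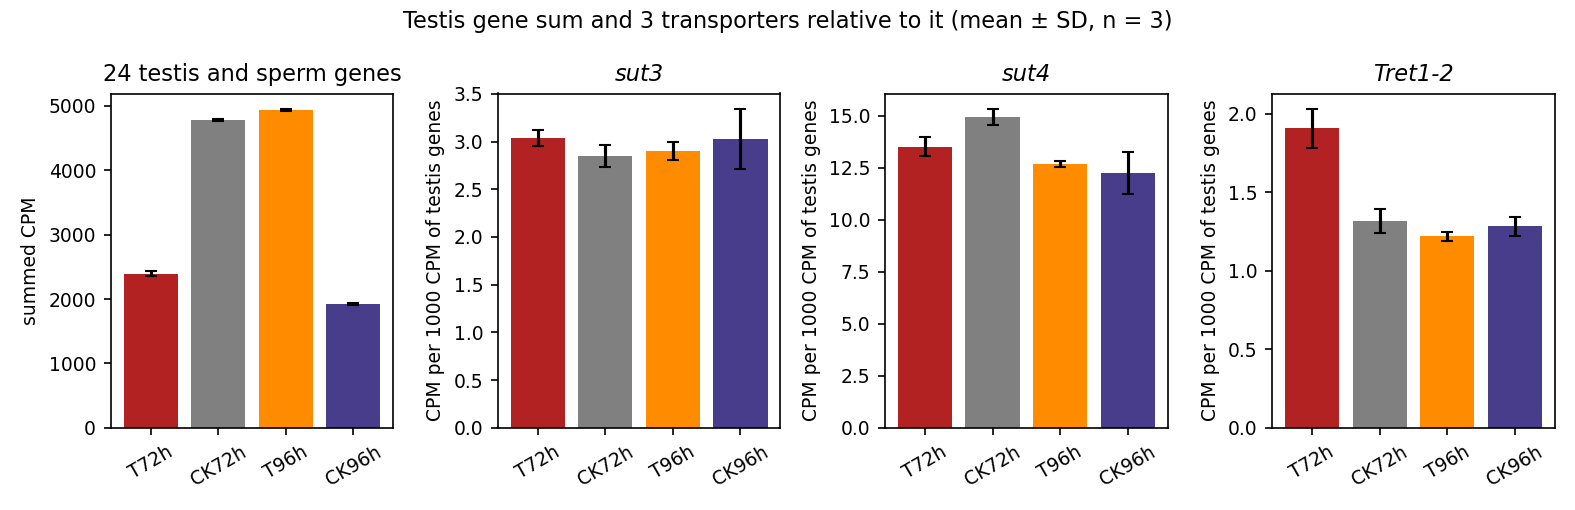
Summed CPM of 24 testis and sperm genes (left) and the CPM of sut3, sut4 and Tret1-2 per 1000 CPM of that sum, by group, as mean ± SD of 3 libraries. The sum is highest in T96h (4931 to 4948) and lowest in CK96h (1903 to 1940), while the ratio of sut3 stays between 2.85 and 3.04.

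Other marker sums moved with other transporters. The order of the groups for sut1 (CK96h, CK72h, T72h, T96h from high to low) was also that of the ovary follicle and fat body sums, and the midgut sum shared it except that CK96h and CK72h overlapped. The 15 ovary genes summed to 1765 to 2013 CPM in T72h and 10687 to 10919 in CK72h, and to 984 to 1004 in T96h and 21806 to 26588 in CK96h, with Vm26Ac at 0 in T72h and T96h and Vm32E at 0 in T72h. At 72 h 1 of them rose and 14 fell, and at 96 h all 15 fell, with -3.11 and -5.09 for Yp2 and -1.65 and -3.10 for Yp1. The median of the 15 was -4.90 at 72 h and -10.24 at 96 h. In T96h Yp1, Yp2 and Yp3 averaged 552, 229 and 211 CPM and gave nearly all of the sum. Vm34Ca averaged 0.0672 CPM there, against 791 CPM in CK96h. The 7 fat body genes gave 1232 to 1305 in T72h and 1591 to 1614 in CK72h, and 1112 to 1152 in T96h and 3262 to 3466 in CK96h. At each time 2 of these 7 rose and 5 fell, and apolpp, with 2161 CPM in CK96h, carried most of the sum there (-1.78 and -3.34, against -0.43 and -0.98 for Lsd-2). The 10 midgut genes gave 5857 to 6504 in T72h and 12004 to 12142 in CK72h, and 4526 to 4593 in T96h and 10974 to 13342 in CK96h, and at each time 1 rose and 9 fell, with -0.65 and -0.98 for alphaTry and -0.80 and -1.10 for betaTry. The part of these tissues in the values of sut1 was not tested.

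Glial genes are of interest beside Tret1-1, and neuronal ones beside Glut1. The 8 glial genes summed to 1199 to 1212 CPM in T72h and 824 to 835 in CK72h, and to 1004 to 1016 in T96h and 837 to 858 in CK96h. At 72 h 3 of these 8 rose and 4 fell. At 96 h 3 rose and 2 fell. The glial sum had the group order of sut2, not of Tret1-1, but Gs2 alone gave 859 CPM of it in T72h and had that order itself. Gs2 (0.86 and 0.39) and Eaat1 (0.41 and 0.08) were the most abundant glial genes. wrapper, the only glial gene called, was lower at both times (-2.41 and -1.93). moody rose at both times (0.65 and 0.67) and alrm fell at both (-0.51 and -0.73). Mdr65 (-1.08 and -0.17) and nrv2 (-0.56 and -0.04) fell at 72 h only, and repo passed at neither time. The 5 neuronal genes summed to 201 to 229 in T72h and 322 to 341 in CK72h, and to 240 to 246 in T96h and 202 to 231 in CK96h. At 72 h 1 of these 5 rose and 4 fell, and at 96 h 2 rose and none fell with edgeR, with -0.88 and 0.38 for nSyb and -0.71 and 0.01 for Syt1, which missed the threshold at 96 h. By group means the neuronal sum had the order of sut4 and Tret1-2 (CK72h, T96h, T72h, CK96h from high to low). The neuronal sums of T72h and CK96h overlapped, as did the Tret1-2 values of CK72h and T96h. The 9 male accessory gland genes gave 114 to 134 in T72h and 1987 to 2031 in CK72h, and 138 to 149 in T96h and 784 to 804 in CK96h, all 9 falling at 72 h and 8 falling and 1 rising at 96 h, with -4.25 and -2.63 for Acp36DE and -3.54 and -2.37 for Acp53Ea. The 6 muscle genes gave 3296 to 3377 in T72h and 2281 to 2292 in CK72h, and 1718 to 1735 in T96h and 1311 to 1320 in CK96h, with 4 higher and none lower at 72 h and 4 higher and 1 lower at 96 h, Mhc giving 0.07 and 0.05 and up 0.75 and 0.22. The 5 Malpighian tubule genes gave 236 to 258 in T72h and 187 to 195 in CK72h, and 180 to 195 in T96h and 196 to 203 in CK96h, with 2 higher and 1 lower at 72 h and 2 higher and 2 lower at 96 h, Irk2 giving 0.91 and 0.56 and Best2 0.41 and 0.13. Uro fell at both times (-0.86 and -1.63) and was the only tubule gene called, at 96 h, while tsh fell at 96 h (-0.37). The part of these tissues in the transporter values was not tested.

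The 7 genes can be set beside 21 other genes of the SLC2-like, SLC45 and SWEET sugar transporter families. At 72 h 16 of these rose and 4 fell, with 9 called higher and none called lower, with a median log2 fold change of 1.08. At 96 h 16 rose and 4 fell, with 8 called higher and none lower, and the median was 1.02. These counts stand beside the shares of all genes called higher given above, 3.98% and 3.97%. Beside them the 7 genes had medians of -0.47 at 72 h, when 2 of 7 rose, and 0.95 at 96 h, when 5 of 7 rose, values set side by side with no test.

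CG6484 was the most abundant of these relatives over all libraries and had the largest rise at 96 h. It averaged 731 ± 15.7 CPM in T72h and 155 ± 1.37 in CK72h, and 663 ± 3.63 in T96h and 99.97 in CK96h (SD where given, n = 3 each), with log2 fold changes of 2.24 and 2.73. CG33282 had 2.26 at 72 h and 1.72 at 96 h, CG3285 2.23 and 2.33, CG8249 2.15 and 1.75, CG4607 1.83 and 1.53, and CG7882 1.77 and 1.94. Each of these 6 was called at both times. Glut3 and CG14605 were chosen after their values were seen, because they took the course of sut3 and sut4: Glut3 had -1.02 at 72 h and 1.77 at 96 h, and CG14605 -0.93 and 1.27. slv, the SWEET gene that overlaps sut1, had -0.65 and -0.18.

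Per kilobase, the 28 family genes together gave 1454 CPM in T72h and 619 in CK72h, and 1177 in T96h and 499 in CK96h, of which the 7 genes above were 213, 171, 185 and 118 in that order of groups. The sum of the whole family was therefore more than doubled on erythritol, as 1454 against 619 and 1177 against 499, whereas that of the 7 genes was higher by less. The largest rises in it were those of CG6484 (459 against 97.5 at 72 h and 417 against 62.9 at 96 h) and CG1213 (263 against 78.8 and 186 against 77.0). Of the 21 relatives, 4 fell at each time. Tret1-1 ranked 3rd of the 28 in T72h and 2nd in CK72h, and 3rd in T96h and 4th in CK96h.

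**Figure D5:**
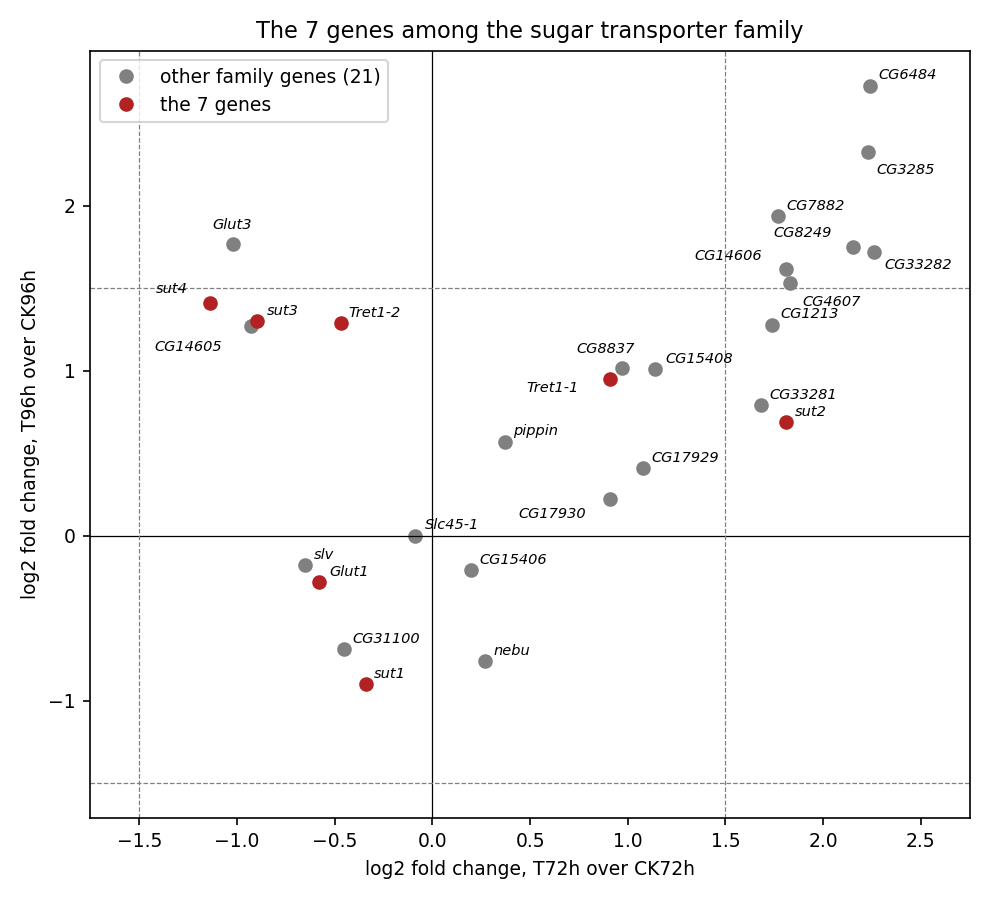
Log2 fold change at 72 h (horizontal axis) against 96 h (vertical axis), erythritol-fed over control flies, for the 7 genes and 21 other sugar transporter family genes, with dashed lines at 1.5. Most relatives lie at the upper right, up to CG6484 at 2.24 and 2.73, while sut3, sut4 and Tret1-2 lie at the upper left with Glut3 and CG14605.

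The SLC5 family moves sugars and other solutes together with sodium. At 72 h 4 of 7 genes rose and 3 fell, and at 96 h 2 of 7 rose and 2 fell, with rumpel called lower at both times (-1.95 and -1.70). kumpel, the most abundant, had 1.11 and 1.26. Among 5 genes that make or split trehalose, 3 rose and 2 fell at 72 h, while at 96 h 3 rose and 1 fell, with none called with edgeR. Tps1, which makes trehalose and was the most abundant, had 0.60 at 72 h (adjusted p = 4.59e-12) and -0.04 at 96 h (adjusted p = 0.382). Of the 4 hexokinases, which phosphorylate glucose after it enters a cell, 2 rose and 2 fell at 72 h with none called, and all 4 rose at 96 h with 1 called. That was Hex-t2, a testis form, with -0.84 at 72 h and 1.53 at 96 h, and the most abundant, Hex-A, had 0.96 and 0.16. Tret1-1, which carries trehalose, rose at both times, while Tps1 rose at 72 h and its effects at the 2 times differed (adjusted p = 1.21e-09).

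Over the 12 libraries, the log2 CPM of sut3 and sut4 went together with a Pearson correlation of 0.99, and those of sut4 and Tret1-2 and of sut3 and Tret1-2 with 0.93 and 0.91. Glut1 ran opposite to Tret1-1 (-0.93) and to sut2 (-0.89), and Tret1-1 and Tret1-2 had 0.56. All points come from the same 4 groups, so these values describe the group pattern and carry no p.

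Among the 10070 genes whose log2 CPM averaged 2 or more, those most like each member were found in the same way. They were TTLL4B (0.998) and CG9254 (0.996) for sut3, CG10859 (0.997) and Tengl4 (0.997) for sut4, and Dhc62B (0.986) and SkpB (0.982) for Tret1-2. For Tret1-1 they were zormin (0.996) and Pde8 (0.995), and for sut2 Gbs-76A (0.994) and Rim2 (0.994). For sut1 they were timeout (0.992) and alpha-Est1 (0.988), and for Glut1 Mppe (0.982) and HisT (0.980). The number of genes above 0.95 was 1077 for sut4 and 1013 for sut3. It was 17 for Glut1, 67 for Tret1-2, 143 for Tret1-1, 392 for sut1 and 441 for sut2. These numbers alone do not show how common a course was. Tret1-2 had 0.93 with sut4 but far fewer such genes, and only 47 to 155 counts per library.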

How the data were processed

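Whole-fly poly(A) RNA was sequenced in 12 libraries. Reads had been trimmed and filtered by the authors and aligned with HISAT2 2.2.0 to FlyBase release 6.37, and the deposited values are raw counts per gene. The counter and strandedness were not given in the sources used here. Names and positions came from the Ensembl annotation of dm6. Counts were analysed with edgeR 4.0.16 in R 4.3.3 (filter on groups, TMM factors, quasi-likelihood fit of all 12 libraries), with Benjamini-Hochberg adjustment over 13179 genes. The code was also run on counts simulated from the fitted model, to see that changes put in were found. Such counts follow the model by design, so they cannot show how well it holds for these data. Contrasts were T against CK at each time, the difference of these effects and 96 h against 72 h within each diet. Alternatives were DESeq2 1.42.0, other scalings, other filters, a replicate block and leaving out each library. The fits rest on 3 replicates a group, described as biological. An exact permutation test of 3 against 3 could not go below 0.1, so none is given.

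The 7 genes, the gene lists and the tests were chosen with earlier results of these data known. Named genes are the 7 members whatever their values, up to 6 called genes and the most abundant gene of each pathway list, the 2 most abundant genes of marker lists, and the 2 genes most like each member. Marker genes listed at 0 were named outside this rule. So were Glut3, CG14605, slv, CG1213, Yp3, Vm34Ca, Uro, tsh and the glial genes other than Gs2 and Eaat1. Correlations used log2 CPM with a prior count of 2. One name, CG42825, entered the family list by mistake and was left out. Libraries of 1 group differed by more than sampling noise (common biological coefficient of variation 4.06%), and each was counted as a separate replicate. Same-numbered libraries did not deviate together (correlations -0.043 to 0.076).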

Additional observations from a re-analysis of the deposited data

Results flagged for a closer look

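For 6 of the 7 genes the effect of erythritol differed between 96 h and 72 h by the test of the difference itself (edgeR, adjusted over all genes), beside 78.9% of all genes tested. The difference, as the 96 h minus the 72 h log2 fold change, was 2.55 for sut4, 2.21 for sut3 and 1.75 for Tret1-2, which fell at 72 h and rose at 96 h. It was -1.12 for sut2, which rose less at 96 h, -0.56 for sut1, which fell more at 96 h, and 0.30 for Glut1, which fell less at 96 h.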

How the results depend on the processing

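Of the member fold changes recomputed under the alternatives, 684 kept their direction and side of the threshold, 5 newly passed it and 4 reversed. The reversed ones were all Glut1 in CK96h against CK72h, with -0.10 under upper-quartile scaling, -0.12 under library totals, -0.04 with only the groups compared and -0.04 without T72h replicate 3, the range without each library in turn being -0.04 to 0.10. With the replicate block no call of a member changed, and 522 genes were called higher and 1179 lower at 72 h, beside 524 and 1176 without it. Without a fold threshold, the members passing higher and lower were 2 and 5 at 72 h, 5 and 2 at 96 h, 2 and 4 for CK96h against CK72h and 4 and 3 for T96h against T72h, and over all genes 4910 and 5543, 5053 and 5424, 6224 and 4627, and 3460 and 3526. Leaving out 1 library at a time gave 0 to 1 members called higher at 96 h and 523 to 847 of all genes, with 847 without T72h replicate 3, and 551 to 964 called lower in CK96h against CK72h, with 964 without the same library. Calls lower in CK96h against CK72h were 1262 of all genes and 2 members under upper-quartile scaling, 1394 and 2 under library totals, and 916 of all genes with only the groups compared, against 536 and 1. With library totals 342 genes were called higher at 72 h, against 524, and 3635 were lower in the difference between times, against 6303. In T96h against T72h 44 genes were called higher with the stricter filter and 51 with only the groups compared, against 86.

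Among the genes called in a contrast, not among all genes, the share that was higher moved by over 10 points in several cases. In CK96h against CK72h it was 27.7%, against 11.1% under upper-quartile scaling, 9.77% under library totals and 15.6% with only the groups compared. In the difference between the times, called on adjusted p alone, it was 39.4%, against 49.5% under upper-quartile scaling and 58.9% under library totals. In T72h against CK72h it was 30.8%, against 17.7% with library totals. In T96h against T72h it was 46.7%, against 36.1% with RLE factors, 36.4% with DESeq2 and 32.6% with the stricter filter. The median of all genes shifted in the difference between the times by 0.20 and 0.31 under upper-quartile scaling and library totals, at 72 h by -0.13 (upper-quartile factors) and -0.26 (library totals), and by 0.12 in T96h against T72h with library totals. Without T72h replicate 3 it shifted by 0.11 at 96 h and by -0.11 in CK96h against CK72h, contrasts that do not hold that library. The cause was not tested. Tret1-2 and sut2 have the fewest counts, so their values are the least precise.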
